A study of Caenorhabditis elegans with 3 samples.

Results

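The actin genes of Caenorhabditis elegans, act-1, act-2, act-3, act-4 and act-5, were followed in late young adult hermaphrodites on 3 two-channel arrays. They were taken by their gene symbols: each had 1 probe whose annotation names that gene alone, and all 5 genes had a value on all 3 arrays, among 15081 genes with a symbol and 19264 genes or unnamed probes measured. Channel 2 of each array carried RNA of adult hermaphrodites, from preparation 1, 2 or 3. Channel 1 carried a wild-type mixed reference RNA that was shared by all arrays. The labels name no strain, mutation, treatment or age in hours for the adults, and do not say which stages the reference pooled. Nothing shows that the 3 preparations were grown separately, and part of their spread may be technical. The p-values reflect only that spread, which limma, the main test, draws towards the spread of all features.

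Actin is the protein that polymerises into the thin filaments of muscle and the cortical meshwork of most other animal cells. In C. elegans act-1, act-2, act-3 and act-4 encode near-identical conventional actins. act-1, act-2 and act-3 serve chiefly the body wall muscle, with act-2 also used in the cortex of early embryos, and act-4 serves body wall and other muscles. act-5 encodes the divergent actin of the microvilli that line the intestine and the excretory canal. A probe for one conventional gene may pick up RNA of its near-identical copies, so the 4 conventional values cannot be taken as separate measurements of 4 genes.

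The values are log2 ratios, so 1 unit is a factor of 2, and 0 means an equal share of the RNA in both channels. Adult over reference was taken as the likely direction, because the adult RNA is channel 2 and the labels name the adults first. All 10 of 10 germline markers lay above 0, with a median of 2.06. With the opposite direction every "higher" would read "lower". The array medians over all probes were 0.05, 0.01 and 0.02, and the arrays correlated across genes at 0.763 (arrays 1 and 2), 0.773 (1 and 3) and 0.900 (2 and 3). A ratio of whole-animal RNA cannot tell more cells of a type from more RNA per cell.

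All 5 actin genes were higher in the adult RNA than in the mixed reference, by 1.79-fold for act-4 to 2.38-fold for act-5, and 0 were lower. The count of 5 of 5 higher by limma stands beside 19.6% of all 19264 features called higher, 18.8% called lower and 38.4% in either direction. Their median log2 ratio was 0.94, against 0.04 for all features. In the order of the means, act-5 came first, then act-3, act-1, act-2 and act-4.

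Among the conventional genes, act-1 (T04C12.6, chromosome V) had log2 ratios of 0.85, 0.46 and 1.50 on arrays 1, 2 and 3. Its mean was 0.94 ± 0.52 (SD, n = 3), or 1.91-fold with a moderated 95% confidence interval of 1.36 to 2.69, and the limma adjusted p was 0.00906. All 3 values lay above 0, the lowest on array 2 and the highest on array 3. act-2 (T04C12.5, chromosome V) had 0.88, 0.33 and 1.45 on the same arrays. Its mean was 0.89 ± 0.56 (SD, n = 3), or 1.85-fold (1.30 to 2.64), with a limma adjusted p of 0.0133. Again array 2 was lowest and array 3 highest, and the values of act-1 and act-2 were within 0.13 of each other on every array.

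The third gene of the cluster, act-3 (T04C12.4, chromosome V), had log2 ratios of 1.16, 0.36 and 1.47. Its mean was 1.00 ± 0.57 (SD, n = 3), 1.99-fold (1.40 to 2.85), with a limma adjusted p of 0.00847. On array 1 it stood above act-1 and act-2, by 0.31 and 0.28, while on arrays 2 and 3 it was near both. The X-linked act-4 (M03F4.2) had 1.03, 0.18 and 1.30. Its mean of 0.84 ± 0.59 (SD, n = 3), 1.79-fold (1.25 to 2.56), carried the highest adjusted p of the 5 genes, 0.0193 by limma. Its value on array 2 was the lowest single value of any actin gene.

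The intestinal actin act-5 (T25C8.2, chromosome III) had 1.25, 0.64 and 1.86, the highest actin value on each of the 3 arrays. Its mean was 1.25 ± 0.61 (SD, n = 3), 2.38-fold (1.64 to 3.44), with a limma adjusted p of 0.00341. Of all features, 4.74% had a mean at or above that of act-5, against 8.47% for act-3, 9.56% for act-1, 10.33% for act-2 and 11.40% for act-4. All 5 genes thus lay well above the middle of the table without being at its top.

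**Figure D1:**
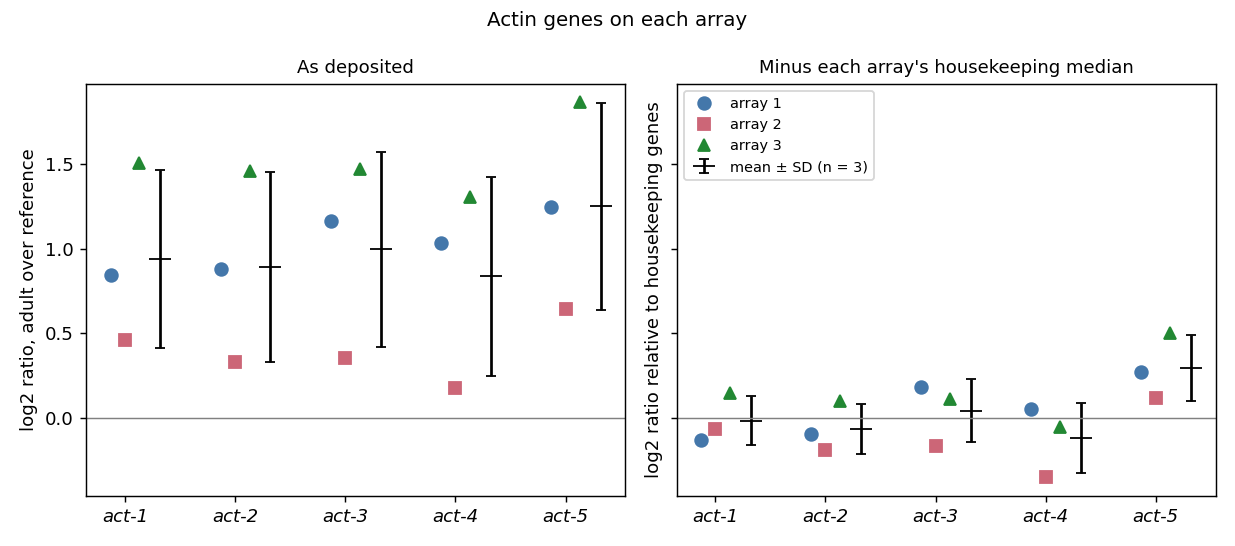
Log2 ratios (adult over reference, vertical axis) of the 5 actin genes on arrays 1 (circles), 2 (squares) and 3 (triangles), with the mean and SD of the 3 arrays beside them. On the left, as deposited, all 15 values lie above 0, array 2 lowest and array 3 highest for each gene; on the right, after subtraction of each array's median over the abundant housekeeping genes, the means of act-1 to act-4 lie between −0.11 and 0.04 and that of act-5 at 0.30.

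The calls of act-1, act-2 and act-4 leaned on array 3. Without array 3, act-3 (adjusted p = 0.0323 by limma) and act-5 (0.00661) passed, while act-1, act-2 and act-4 had means of 0.65, 0.61 and 0.60 and adjusted p of 0.0615, 0.0876 and 0.0979. Without array 1, act-4 did not pass (adjusted p = 0.0789 by limma), and without array 2 all 5 passed. A one-sample test without moderation, which uses only the 3 values of each gene, called 0 of the 5 genes, with unadjusted p of 0.0709 to 0.132. After adjustment it called 0 of all features, although 6188 had an unadjusted p below 0.05, where limma had 8985. The actin SDs, 0.52 to 0.61, were above the median of 0.27 over all features. By moderation, the limma p-values and intervals of the actin genes thus rest in part on the spread of less variable genes.

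Differences between the genes were smaller than the swing they shared between arrays. Averaged over the 5 genes, arrays 1, 2 and 3 gave 1.03, 0.40 and 1.52, a range of 1.12, while the gene means spanned 0.41, and those of act-1 to act-4 spanned 0.16. Within an array, act-1 to act-4 spanned 0.31, 0.28 and 0.20 on arrays 1, 2 and 3. act-5 was compared with each of the others on the same array, so that a shift shared by all actin genes on an array drops out.

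act-5 exceeded act-4 by 0.22, 0.46 and 0.56 (mean 0.41 ± 0.18, SD, n = 3) and act-2 by 0.36, 0.31 and 0.41 (mean 0.36 ± 0.05). It exceeded act-1 by 0.40, 0.18 and 0.36 (mean 0.31 ± 0.12) and act-3 by 0.09, 0.28 and 0.39 (mean 0.25 ± 0.16). All 12 of these differences were above 0, the smallest on array 1 against act-3. Against the mean of the 4 conventional genes, act-5 was higher by 0.27, 0.31 and 0.43, a mean of 0.33 ± 0.08 (SD, n = 3) or 1.26-fold. The exact two-sided sign-flip permutation test gave p = 0.25 for each of these comparisons, the smallest that 3 arrays allow. For the 4 pairs with act-5 that p became 0.417 after Benjamini-Hochberg adjustment over all 10 pairs. The comparison with the mean was outside that adjustment.

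Of the 10 pairs, 6 kept one sign on all 3 arrays: the 4 with act-5, act-3 over act-2, and act-3 over act-4. act-4 lay below act-3 by 0.13, 0.18 and 0.16 (mean difference −0.16 ± 0.03, SD, n = 3), the least variable of the 10 differences. act-3 exceeded act-2 by 0.28, 0.02 and 0.01, almost all of it on array 1. The other 4 pairs, act-2 and act-1, act-3 and act-1, act-4 and act-1, and act-4 and act-2, had mean differences of −0.05 ± 0.08, 0.06 ± 0.22, −0.10 ± 0.25 and −0.05 ± 0.17 (SD, n = 3) and changed sign between arrays, with exact p of 0.5 to 1. The order within these 4 pairs is not settled by the 3 arrays. For the other 6 pairs, the exact two-sided sign-flip permutation test gave p = 0.25, the smallest that 3 arrays allow. That test therefore cannot settle their order either, and their shared sign describes these 3 arrays only.

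**Figure D2:**
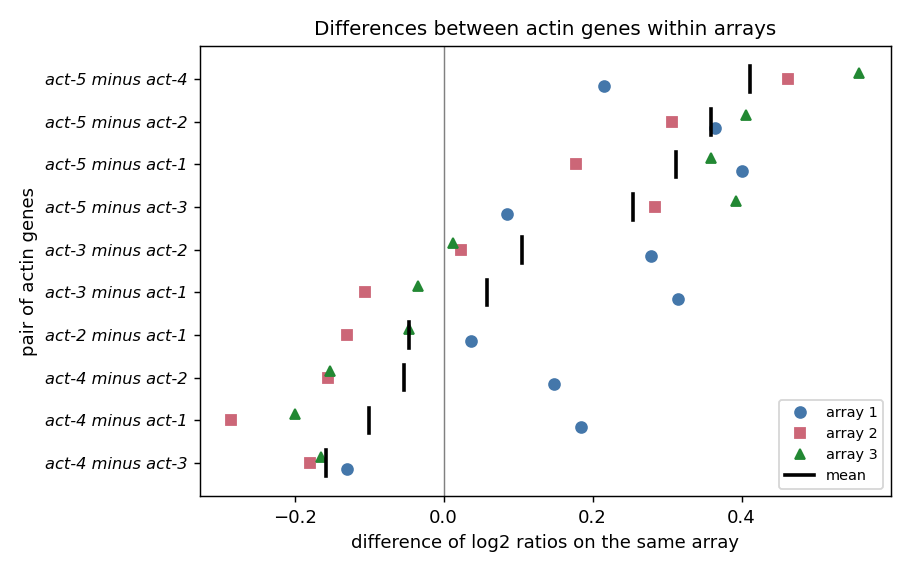
Difference of log2 ratios on the same array (horizontal axis) for the 10 pairs of actin genes, with 1 symbol per array and a bar at the mean. The 12 values of the 4 pairs with act-5 all lie right of 0, from 0.09 to 0.56, while 4 of the pairs among act-1 to act-4 have values on both sides.

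Each of the 5 genes had its lowest value on array 2 and its highest on array 3, an order that 11.5% of all features shared. On array 3 the actin genes lay above array 2 by 1.04 (act-1), 1.12 (act-2), 1.11 (act-3), 1.12 (act-4) and 1.22 (act-5), against a median of 0.01 over all features. Gaps as large as that of act-1 occurred in 1.50% of features and as large as that of act-5 in 0.89%. The SD of the actin genes, 0.52 to 0.61, compares with a median of 0.27 over all features.

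A list of abundant housekeeping genes, among them translation factors, ribosomal proteins, tubulins and ATP synthase subunits, moved between arrays in a like way. In 13 of its 13 measured genes array 3 exceeded array 2, the median gap being 0.79, and the list's medians on arrays 1, 2 and 3 were 0.97, 0.52 and 1.35. The adult was higher in 10 of the 13 and lower in 2, and the median of the gene means was 0.97, beside the 0.94 of the actin genes; without array 3, 6 were higher, without array 1, 1 was lower, and without array 2, 0 were lower. Single members ranged from −0.65 for ant-1.1, an ADP/ATP carrier of the mitochondrion, to 1.63 for the chaperone hsp-1. The germline markers had a median gap of 0.17 between arrays 3 and 2. Large gaps were not confined to the housekeeping list. Genes that share the thin filament with actin in muscle had a median gap of 0.81, with array 3 above array 2 in 9 of 10. Markers of body wall muscle had a median gap of 0.58, with array 3 above array 2 in 7 of 10.

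When each array was set to its housekeeping median, a reference point chosen after the values were seen, the actin genes moved to near 0 while the median of all features moved to −0.91. On this scale act-1 was at −0.01 ± 0.14, act-2 at −0.06 ± 0.15, act-3 at 0.04 ± 0.18 and act-4 at −0.11 ± 0.21 (SD, n = 3). act-5 was at 0.27, 0.12 and 0.51 on the 3 arrays, a mean of 0.30 ± 0.19 (SD, n = 3; adjusted p = 0.388 by limma). The SD of each gene was less than its SD in the deposited values, and 0 of the 5 genes passed the threshold. The moderated 95% intervals ran from −0.73 to 0.67 over the conventional genes and from −0.32 to 0.92 for act-5, so differences from the housekeeping genes of that size remain possible. What part the shared shift between arrays has in the actin ratios was not tested.

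**Figure D3:**
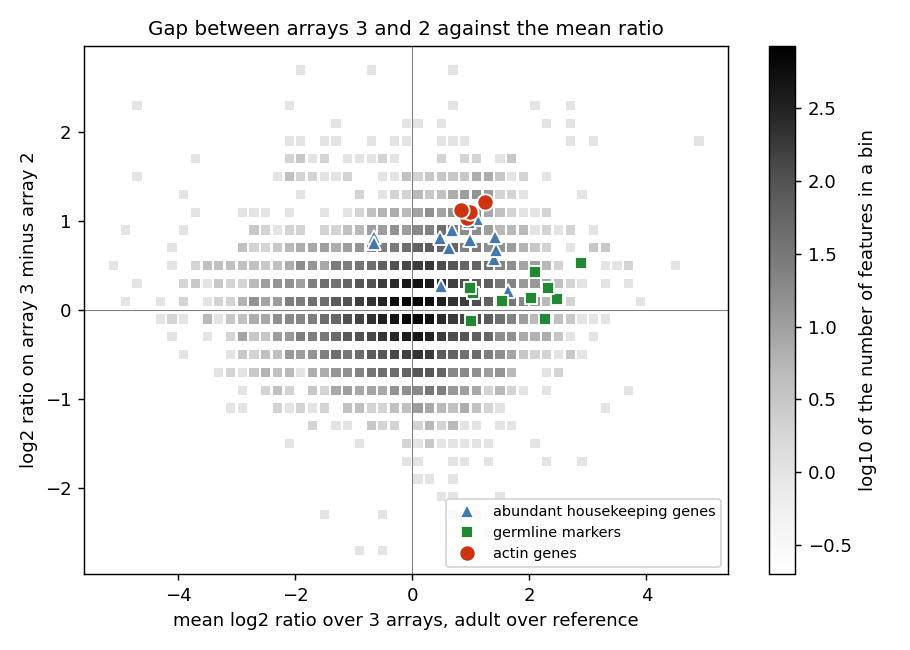
Mean log2 ratio over 3 arrays (horizontal axis) against the log2 ratio on array 3 minus that on array 2 (vertical axis), with grey squares for the number of features per bin on a log10 scale, circles for the actin genes, triangles for the abundant housekeeping genes and squares for the germline markers. The 5 actin genes lie at gaps of 1.04 to 1.22, above all 13 housekeeping genes, and the germline markers lie further right at a median gap of 0.17.

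The genes closest in pattern were found by Euclidean distance between log2 ratios over the 3 arrays, among genes with a symbol. Nearest to act-5 were 3 major sperm protein genes, msp-59, msp-10 and msp-79, at distances of 0.09, 0.14 and 0.15. Whether the probes of these 3 genes share signal was not tested, so they may not be separate matches. The major sperm proteins form the motile cytoskeleton of nematode sperm, which takes the place of actin there. msp-59 had 1.19, 0.58 and 1.88, beside 1.25, 0.64 and 1.86 for act-5, and 76 genes outside the family lay nearer to act-5 than its nearest actin, act-3, at 0.49.

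Nearest to act-1 were msp-3 (0.11), the nucleoside diphosphate kinase gene ndk-1 (0.17) and R09E10.6 (0.18), and nearest to act-3 were msp-53 (0.09), the sperm phosphatase gene gsp-3 (0.13) and F32B5.1 (0.14). Nearest to act-2 were K04F1.1 (0.21), W10C8.5 (0.21) and perm-2 (0.22), a gene of the eggshell permeability barrier. Nearest to act-4 were T13F2.9 (0.10), the acyl-CoA synthetase gene acs-10 (0.13) and the small ribosomal subunit gene rpsa-1 (0.16). act-1 and act-2 were 0.14 apart, with 1 gene outside the family nearer to act-1 and 0 nearer to act-2. With 3 arrays a distance describes these libraries only.

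The conventional genes act-3, act-2 and act-1 stand next to each other on chromosome V, with no other protein-coding gene between them in the RefSeq annotation of WBcel235, which was used here only for names and gene order. The genes around this cluster went the other way. On the act-1 side, Y42A5A.1 lay at −1.23 ± 0.57, lact-8 at −1.06 ± 0.33 and Y42A5A.3 at −1.18 ± 0.35 (SD, n = 3), with limma adjusted p of 0.00314, 0.00217 and 0.00147. On the act-3 side, the neuropeptide-like gene nlp-80 lay at −3.35 ± 0.33, and T04C12.8 and T04C12.9 were not analysed here. The drop from the actin genes to their neighbours on both sides was larger than the spread of any of these genes.

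**Figure D4:**
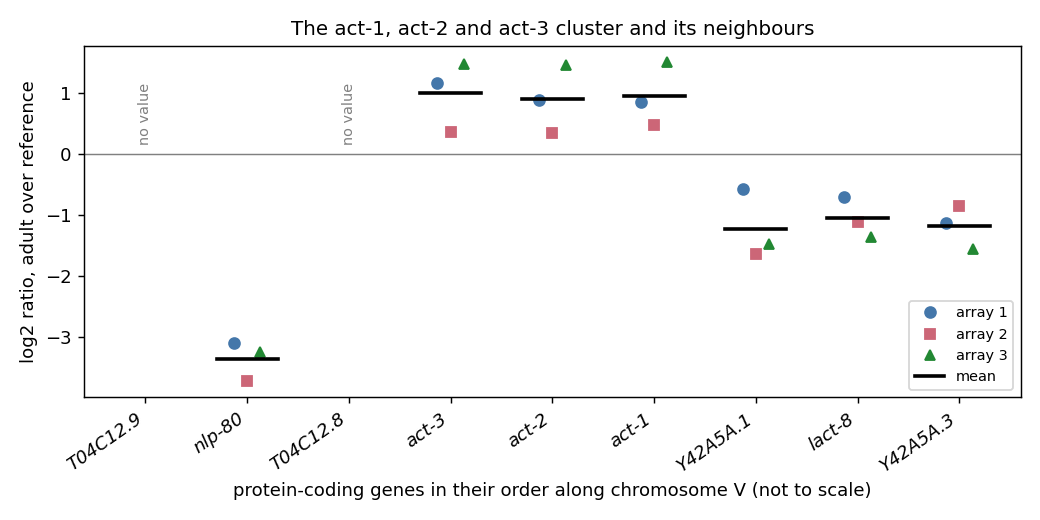
Log2 ratios (adult over reference, vertical axis) of act-3, act-2 and act-1 and the 3 protein-coding genes on either side, in their order along chromosome V, with 1 symbol per array and a bar at the mean. The 3 actin genes lie between 0.33 and 1.50 and the 4 measured neighbours between −3.72 and −0.57.

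Around act-4 and act-5 the picture was mixed. calu-1, which encodes the calcium-binding protein calumenin, and mct-4 were higher at 1.13 ± 0.32 and 0.85 ± 0.27 near act-4. M03F4.6, which overlaps act-4 in that annotation, lay at −0.15 ± 0.23 and did not pass. Near act-5, osm-7 and exc-12 were lower at −1.71 ± 0.26 and −0.60 ± 0.43, and the genes on either side of it, T05D4.5 and shpk-1, lay at 0.27 ± 0.37 and 0.28 ± 0.16 (SD, n = 3) and did not pass. Of 18 distinct neighbours within 3 places of an actin gene, 15 were measured, 2 of them higher and 6 lower (median −0.22). Over all features, 19.6% were called higher and 18.8% lower. Among the lower neighbours, Y42A5A.1, lact-8 and Y42A5A.3 stand next to each other on chromosome V.

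Genes that act on actin were taken from 8 lists, of 90 genes in all and 75 measured. The adult was higher in 31 (41.3%) and lower in 10 (13.3%), beside the 19.6% and 18.8% of all features, and their median log2 ratio was 0.19. The lists differed among themselves, and the means below are over 3 arrays with their SD.

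Nucleation of branched filaments by the Arp2/3 complex was represented by its activators alone, since the arx subunit genes were not analysed here. Of these 7 genes, 6 passed as higher and 0 as lower (list median 0.82). abi-1, a subunit of the WAVE complex that switches on Arp2/3, lay at 1.18 ± 0.07. The membrane-bending adaptor toca-2 lay at 1.16 ± 0.67, with 0.38, 1.60 and 1.49 on the 3 arrays, and the WAVE gene wve-1 lay at 0.90 ± 0.45. Of the formins and profilins, which elongate unbranched filaments and load monomers, 3 of 9 passed as higher and 1 as lower (list median 0.18). The formin inft-2 was higher at 1.50 ± 0.28, the profilin pfn-1 at 0.94 ± 0.43 and the cytokinesis formin cyk-1 at 0.67 ± 0.06. The formin of body wall muscle, fhod-1, was lower at −0.73 ± 0.09; without array 1 this list had 2 lower genes and without array 3 it had 0.

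Of 14 genes of filament capping, severing and monomer binding, 4 passed as higher and 3 as lower (list median −0.06). The coronin-like gene pod-1 was higher at 1.70 ± 0.19, the cyclase-associated protein gene cas-2 at 1.32 ± 0.30, the villin-like gene viln-1 at 0.92 ± 0.26 and the cofilin gene unc-60 at 0.68 ± 0.22. The gelsolin-like gene gsnl-1 was lower at −1.53 ± 0.41, the thymosin gene tth-1 at −0.90 ± 0.42 and the tropomodulin gene tmd-2 at −0.80 ± 0.26. The list thus held severing genes on both sides of 0.

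Of 15 genes of filament crosslinking and cortical contraction, 7 passed as higher and 0 as lower (list median 0.41). The anillin genes ani-2 and ani-1, scaffolds of the germline and of the cytokinetic ring, were higher at 2.13 ± 0.27 and 1.69 ± 0.33. The non-muscle myosin nmy-2, the motor of the embryonic cortex, was higher at 1.20 ± 0.42. These cortical genes lay above every actin gene except for nmy-2, which was below act-5.

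Genes that share the thin filament with actin in muscle went both ways: of 10 measured, 3 passed as higher and 2 as lower (list median −0.12). The troponin T genes tnt-2 and mup-2 were higher at 1.12 ± 0.73 and 1.02 ± 0.70, and the pharyngeal troponin I gene tni-4 at 0.58 ± 0.24. The pharyngeal troponin C gene tnc-2 was lower at −2.59 ± 0.44 and the troponin I gene tni-1 at −0.96 ± 0.27; without array 3, 1 gene of this list was higher. tnt-2 and mup-2 had gaps of 1.26 and 1.31 between arrays 3 and 2, of a size with those of the actin genes. Of 10 other markers of body wall muscle, where the conventional actins are abundant, 1 passed as higher and 2 as lower. Their median was 0.15, and arrays 1, 2 and 3 gave 0.05, −0.18 and 0.43; without array 2, 2 were higher and 1 lower, and without array 3, 1 was lower. Of those that passed, unc-52 was higher at 1.53 ± 0.58, and hlh-1 and unc-89 were lower at −0.81 ± 0.05 and −0.56 ± 0.29. The myosin heavy chain gene unc-54 lay at 0.31 ± 0.10 and myo-3 at 0.30 ± 0.50, and neither passed. For 6 markers of pharyngeal muscle the median was −0.24, 1 passing as higher (tni-4) and 1 as lower (tnc-2). These 2 genes and tnt-4 are also members of the thin filament list above. Without array 1 and without array 3, 2 of the 6 markers were lower. Without array 2 and without array 3, 0 were higher.

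The partners of act-5 in the intestinal brush border and the terminal web beneath it had a list median of −0.17; 2 of 9 passed as higher and 3 as lower. The intermediate filament gene ifc-2 was higher at 1.01 ± 0.24, and erm-1, which links actin to the apical membrane, at 0.92 ± 0.04. The intermediate filament genes ifp-1, ifc-1 and ifd-1 were lower at −1.78 ± 0.34, −1.42 ± 0.56 and −0.56 ± 0.25. Of 8 intestine markers, 3 passed as higher and 0 as lower (list median 0.08); leaving out any 1 array gave 1 lower. act-5 had its highest value on array 3. In the brush border and terminal web list, 8 of 9 genes were higher on array 3 than on array 2 (median gap 0.33). Of the 8 intestine markers, 3 were higher there (median gap −0.13). Their medians on arrays 1, 2 and 3 were 0.51, −0.30 and 0.22.

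Of 11 genes of prefoldin and the chaperonin CCT, which fold new actin and tubulin, 6 passed as higher and 1 as lower (list median 0.86). cct-6, cct-7 and cct-2 were higher at 1.27 ± 0.29, 1.25 ± 0.35 and 1.24 ± 0.18, and the prefoldin gene pfd-6 was lower at −0.62 ± 0.15, a call that was lost without array 3. Of 5 actin-related protein genes, arp-11 was measured and was higher at 0.66 ± 0.10. In the somatic gonad list, 2 of 5 genes passed as higher and 1 as lower (list median −0.09); without array 2 and without array 3, 0 were higher, and without array 1, 2 were lower.

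**Figure D5:**
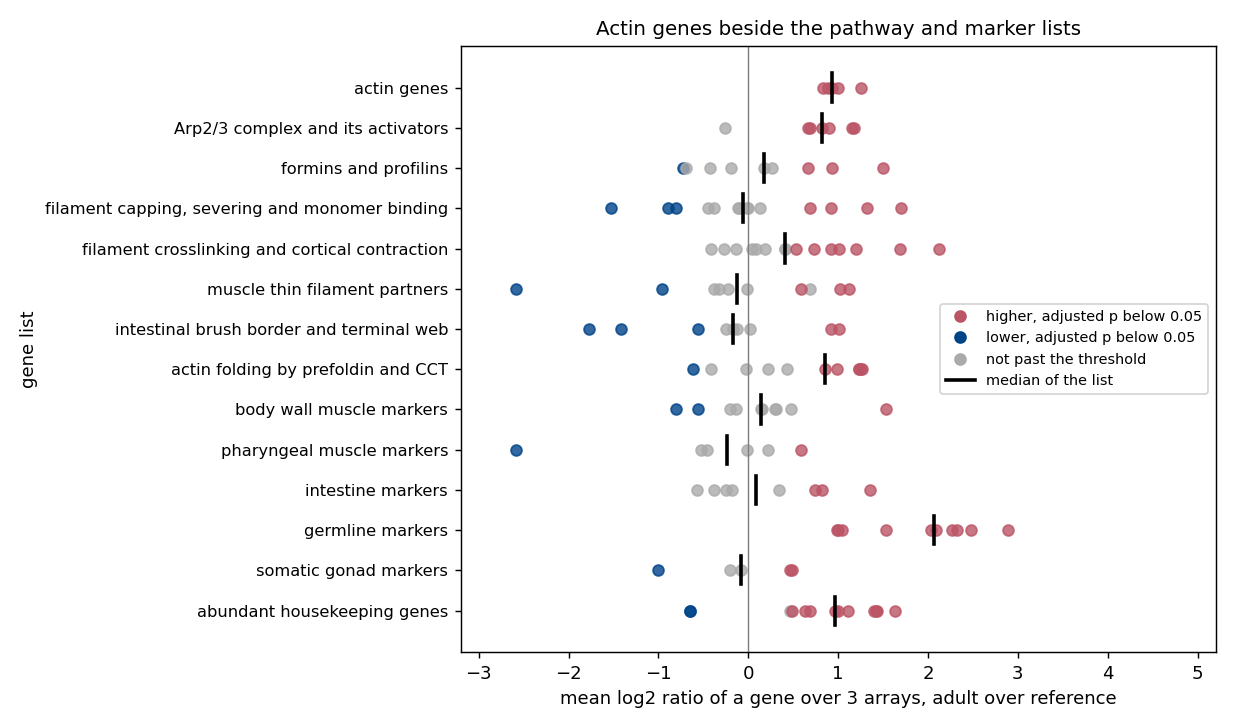
Mean log2 ratio of each gene over 3 arrays (horizontal axis) for the actin genes, 7 lists of genes that act on actin, 5 lists of tissue markers and the abundant housekeeping genes, with coloured points for genes past an adjusted p of 0.05, grey points for the rest and a bar at each list's median. The actin genes lie between 0.84 and 1.25. The list medians run from −0.24 for pharyngeal muscle to 2.06 for the germline. Among them are 0.97 (housekeeping), 0.86 (prefoldin and CCT), 0.82 (Arp2/3 activators), 0.15 (body wall muscle) and 0.08 (intestine).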

How the data were processed

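The deposited values are log2 ratios, 1 per probe and array; the steps by which the authors made them (background, normalization, filters) are not given in the sources used here. Base 2 was inferred from the deposited log2 values, since 99.98% gave steps of 0.001 (tolerance 0.01 of a step) after back-transformation. Spot intensities were not used, so faint and bright spots are mixed and the number of arrays limits the precision.

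Probes were named by the platform annotation, updated through RefSeq (15655 of 20000 had 1 symbol), and probes of a symbol were averaged. The 19264 genes or unnamed probes with 3 values were fitted in limma 3.58.1 (R 4.3.3; lmFit with an intercept, eBayes, two-sided against 0, Benjamini-Hochberg over all, threshold 0.05), after a test on simulated data. The reference's own spread and any effect of the channel stay outside this test. Levels were not compared between genes, only ratios.

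The members and lists were chosen with earlier results of these data known. Named are the 5 actin genes, the 3 largest called differences of each pathway list, all called genes of a direction with 5 or fewer, and the 3 nearest genes in pattern. The chromosomal neighbours and the marker and housekeeping genes named were chosen after values were seen. Alternatives were centring, scaling, quantile normalization, single probes, features on 2 arrays, array weights, robust eBayes, no moderation, the turned sign, each array left out and a housekeeping reference.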

Additional observations from a re-analysis of the deposited data

How the results depend on the processing

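The 5 actin genes kept their direction and their call with array medians at 0, arrays scaled to one spread, quantile normalization and array weights. Single probes, features on at least 2 arrays and robust eBayes could not change the actin means, since each gene had 1 probe and 3 values. Only the calls could change in these settings, and they were kept. With 1 array left out, the mean log2 ratio ran from 0.65 to 1.17 for act-1, 0.61 to 1.17 for act-2 and 0.60 to 1.17 for act-4, and 2 to 5 of the genes were higher. Without moderation the means were as reported, 0.94 (act-1), 0.89 (act-2), 1.00 (act-3), 0.84 (act-4) and 1.25 (act-5), with adjusted p of 0.185 to 0.264. In that setting 0 actin genes and 0 and 0 pathway genes passed, higher and lower. With the sign turned, the means were −0.94, −0.89, −0.995, −0.84 and −1.25, with 0 actin genes higher and 5 lower, and 10 pathway genes higher and 31 lower. With the housekeeping median at 0, chosen after seeing the data, act-1, act-2 and act-4 lay at −0.0138, −0.0602 and −0.11, act-3 at 0.0445 and act-5 at 0.30. There 0 actin genes were higher, and 3 pathway genes were higher and 40 lower, after the subtraction that took the median of all features to −0.91. Apart from the turned sign, 0 of 70 differences between actin genes moved by more than the replicate SD, but most could not have. Centring and single probes leave a difference within an array as it was. Leaving out 1 of 3 arrays cannot move a mean by as much as the SD. Only scaling and quantile normalization could have moved them that far. With the sign kept, 76 of 336 list counts moved by over 1.5 times. act-3 minus act-1 changed sign without array 1, from 0.06 to −0.07. No paired analysis was possible because the series holds 1 group of samples, with no other group to pair it with; the differences between genes were taken within arrays.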
